A study of Mus musculus with 2 samples.

Results

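Collagen chain genes are described here across the cell types of bleomycin-injured mouse lung. The members are every gene of the deposited matrices whose symbol is Col, a number, a and a number, with at least 20 UMIs (unique molecular identifiers, each standing for 1 captured transcript) over both libraries. Of 27998 genes, 44 carry such a symbol and 37 reached the minimum. The members nearest above it were Col22a1 with 29 UMIs, Col11a2 with 32 and Col6a6 with 38. The 7 below it were Col25a1 with 8, Col9a2 with 5, Col6a4 with 4, Col9a1 and Col10a1 with 3 each, Col2a1 with 2 and Col19a1 with 1.

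Collagens are proteins of the extracellular matrix in which chains wind into a triple helix. Fibrillar collagens (types I, III, V and relatives) assemble into the tensile fibrils that accumulate in scarred lung, network collagens (type IV in basement membranes, type VIII) form sheets, FACIT collagens decorate the surface of fibrils, and microfibrillar type VI links cells to the matrix. Transmembrane collagens stay anchored in the cell surface, and multiplexins (types XV and XVIII) sit at or near basement membranes. Chains are hydroxylated and folded with chaperones in the endoplasmic reticulum before export, and procollagens are trimmed outside the cell.

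The study gave mice, whose genotype is labelled C57Bl6, bleomycin, an agent that injures the lung epithelium and is followed by fibrosis, on day 1. They then received vehicle or navitoclax (ABT-263), an inhibitor of BCL-2 family survival proteins, from day 15 to day 20, and lungs were taken on day 21. Digested lungs were flow-sorted for epithelial and stromal cells, which were mixed in equal parts and sequenced with a 10x Genomics Chromium 3′ kit. There was 1 library of bleomycin plus vehicle and 1 of bleomycin plus navitoclax, and no uninjured lung. No label states how many mice, of which sex or age, stand behind each library. Every comparison of the 2 treatments below is therefore a comparison of 2 libraries, with no replicate check and no p-value. The intervals are exact 95% intervals that cover counting error only.

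The vehicle library held 8784 cell barcodes and the navitoclax library 8064, with medians of 9125 and 9920.5 UMIs. The libraries shared 20 barcodes. After filters and removal of called doublets, 7174 and 6240 cells were grouped by clusters made without collagen genes and named "like" a type from marker genes that include no collagen. The libraries stood apart in several clusters: of the alveolar-like fibroblast clusters, 1 held 774 vehicle and 82 navitoclax cells, another 584 and 105, and the third 48 and 763, and 1 AT2-like cluster held 13 and 1140. Mural-like cells (41 vehicle, 35 navitoclax), mesothelial-like cells (59 and 33) and AT1-like cells (155 and 74) were under 100 in at least 1 library. No count of higher or lower members is therefore given for them. For AT1-like cells, ratios of single genes are still given below, under that limit of cells.

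All 44 collagen symbols, of which 37 are members, together gave 770848 UMIs. The 10 fibrillar members held 63.0% of them, the microfibrillar members 16%, the 8 network members 13.5%, the transmembrane members 3.88%, the 6 FACIT members 2.20% and the multiplexins 1.23%. A level is given in CPM, the UMIs of a gene in every 1000000 UMIs of that cell type and library. Since each transcript is counted once at its 3′ end, CPM is not scaled to gene length, and capture can differ between genes, so levels are compared within a gene across cell types rather than between genes.

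Summed over all members, collagen made up 11300 CPM in the pooled vehicle fibroblasts (3523 cells) and 13640 CPM in the pooled navitoclax fibroblasts (2915 cells). The pool includes 996 vehicle and 879 navitoclax fibroblasts that were given no subtype name, with 11030 and 12500 CPM. They were left out of the comparisons of subtypes and the rankings of cell types below. The sum differed between the named fibroblast subtypes in the same order in both libraries. It was 8179 CPM in vehicle and 9751 in navitoclax alveolar-like fibroblasts, the Npnt- and Tcf21-marked cells of the alveolar wall. Peribronchial-like fibroblasts, marked by Hhip and Aspn, had 11600 and 13160 CPM, and adventitial-like fibroblasts, marked by Pi16 and Dpp4 around vessels and airways, had 14990 and 17520. Fibrotic-like fibroblasts had 15600 and 17610 CPM, next to the adventitial-like value in both libraries. Outside fibroblasts the sum was 4949 and 5732 CPM in mural-like, 3737 and 5997 in mesothelial-like, 2535 and 1467 in AT1-like, 525.6 and 575.9 in AT2-like and 246.7 and 271.8 in ciliated-like cells.

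The name fibrotic-like rests on markers that other subtypes share. Of the 12 markers listed for it, 11 reached 20 CPM in vehicle cells and 8 in navitoclax cells. Sfrp1 stood at 297.8 and 326.6 CPM there, against 38.09 and 43.4 in alveolar-like fibroblasts, and Ltbp2 at 371.5 and 380.2 against 88.65 and 82.12. Nearest among the other named subtypes were peribronchial-like fibroblasts, with Sfrp1 at 168.3 and 279.3 CPM and Ltbp2 at 211.5 and 214.7. Other listed markers were higher elsewhere in at least 1 library: Tnc was 122.3 and 125.2 CPM here against 113.8 and 250.5 in alveolar-like fibroblasts, Timp1 341.6 and 308.3 against 264.7 and 471.8 in adventitial-like ones, and Postn 39.07 and 4.21 against 56.82 and 59.97 in peribronchial-like ones. A Cthrc1 UMI was found in 6.41% of the vehicle and 3.51% of the navitoclax cells of this class, and a Postn UMI in 3.56% and 2.88%. The summed marker level was 4626 CPM in vehicle and 1462 in navitoclax cells, but 9167 of the 9878 vehicle UMIs of Spp1 came from 1 cell, and without Spp1 the sums were 1513 and 1386.

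The class make-up of collagen RNA differed widely between cell types. Fibrillar chains held 79.0% of collagen UMIs in vehicle and 79.9% in navitoclax adventitial-like fibroblasts, 76.6% and 76.8% in peribronchial-like, 73.7% and 73.7% in fibrotic-like and 57.4% and 57.7% in alveolar-like fibroblasts. Mural-like cells had 51.6% and 55.1%, and mesothelial-like cells 46.7% and 58.8%. In AT2-like cells the fibrillar share was 3.88% and 5.18%, while network collagens held 63.1% and 63.4% and microfibrillar collagens 26.0% and 25.1%. AT1-like cells, which share the alveolar basement membrane with capillaries, had a network share of 86.6% and 84.1%. Transmembrane collagens held 9.35% and 8.51% of collagen UMIs in alveolar-like fibroblasts, against 1.44% and 0.963% in adventitial-like and 0.143% and 0.191% in peribronchial-like ones.

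Different fibroblast subtypes led for different fibrillar chains. Col3a1, the single chain of type III collagen, was highest in peribronchial-like fibroblasts (4708 CPM in vehicle, 5655 in navitoclax), followed by fibrotic-like (4298 and 5205), adventitial-like (3553 and 4588) and alveolar-like ones (1539 and 1894). Col1a2, which pairs with Col1a1 in type I collagen, was highest in adventitial-like fibroblasts at 4733 and 5176 CPM, with 3529 and 3728 in fibrotic-like, 1772 and 1738 in peribronchial-like and 1514 and 1720 in alveolar-like ones. Col1a1 followed the adventitial-led order, with 2934 and 3475 CPM in adventitial-like, 2697 and 2931 in fibrotic-like, 1715 and 1860 in peribronchial-like and 1202 and 1454 in alveolar-like fibroblasts. The UMI ratio of Col1a1 to Col1a2 was 0.968 in vehicle and 1.07 in navitoclax peribronchial-like fibroblasts, against 0.620 and 0.671 in adventitial-like ones.

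The minor fibrillar chains of type V collagen sit inside type I fibrils and limit their diameter. Col5a2 was highest in fibrotic-like fibroblasts at 624.6 and 735 CPM, against 252 and 311.9 in alveolar-like ones. Col5a1 stood at 210.7 and 239.3 CPM in peribronchial-like, 193.5 and 226.8 in fibrotic-like and 107.8 and 144.9 in alveolar-like fibroblasts. The fibrillar sum in fibrotic-like fibroblasts was 2.45-fold that in alveolar-like ones in the vehicle library and 2.31-fold in the navitoclax library. Under other ways of typing the cells that multiple lay between 1.62 and 3.66, so its size follows the typing while its direction did not change in those tried.

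Promoter sequences are shown for 1 collagen gene that was highest in each of 3 fibroblast subtypes, from 250 bases before the start to the base before it, from RefSeq on GRCm38.p6. Col1a2 (adventitial-like) covers chr6:4505368-4505617 on the plus strand, its RefSeq start lying 804 bases inside the longer GENCODE gene, Col3a1 (peribronchial-like) covers chr1:45311288-45311537 on the plus strand, and Col13a1 (alveolar-like, described below) covers chr10:61979109-61979358 on the minus strand. Capitals mark the TATA-box letters TATAAA, the CAAT-box letters CCAAT and the GC-box letters GGGCGG, each searched on both strands.
Col1a2: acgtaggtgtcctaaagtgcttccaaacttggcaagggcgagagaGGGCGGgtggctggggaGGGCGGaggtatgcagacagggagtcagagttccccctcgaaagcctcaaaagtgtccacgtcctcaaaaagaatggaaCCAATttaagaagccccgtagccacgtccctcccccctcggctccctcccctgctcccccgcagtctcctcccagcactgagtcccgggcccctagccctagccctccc
Col3a1: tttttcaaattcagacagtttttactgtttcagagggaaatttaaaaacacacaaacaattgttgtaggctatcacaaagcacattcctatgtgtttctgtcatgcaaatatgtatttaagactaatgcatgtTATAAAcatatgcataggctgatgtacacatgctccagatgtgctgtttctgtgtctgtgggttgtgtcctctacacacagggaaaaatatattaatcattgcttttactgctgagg
Col13a1: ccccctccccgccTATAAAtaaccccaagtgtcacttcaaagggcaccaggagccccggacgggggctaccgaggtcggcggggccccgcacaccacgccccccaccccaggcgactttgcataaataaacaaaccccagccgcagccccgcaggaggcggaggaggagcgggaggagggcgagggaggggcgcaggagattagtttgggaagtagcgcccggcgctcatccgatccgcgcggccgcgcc
The Col1a2 window held GGGCGG beginning 205 and 188 bases before the start and CCAAT at 109, the Col3a1 window TATAAA at 117, and the Col13a1 window TATAAA at 237. Windows were found for 29 members, 31 in all. GGGCGG occurred in 19 of the 31, against 32.7% of all 32851 windows, CCAAT in 10 (33.9% of all) and TATAAA in 4 (12.4% of all). These are matches of letters only.

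FACIT and multiplexin collagens differed widely between the subtypes. Col14a1, which binds fibril surfaces, stood at 454.5 CPM in vehicle and 465.3 in navitoclax adventitial-like fibroblasts, 256.1 and 240.4 in peribronchial-like, 81.3 and 90.95 in fibrotic-like and 17.04 and 20.76 in alveolar-like ones. Col12a1, a FACIT collagen of tension-bearing tissue, was highest in peribronchial-like fibroblasts at 150.3 and 143.9 CPM, with 38.13 and 45.6 in fibrotic-like and 11.52 and 16.75 in alveolar-like ones. It also reached 55.72 and 71.26 CPM in AT1-like cells. Peribronchial-like fibroblasts carried smooth muscle markers at a sum of 4023 and 4356 CPM, and the part of those markers in their collagen levels was not tested.

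Col15a1, a multiplexin of vessel and muscle basement membrane zones, was highest in adventitial-like fibroblasts (117.1 and 168.4 CPM) and close to 1 CPM in vehicle alveolar-like ones (0.952, against 3.22 in navitoclax). Col18a1, whose C-terminal fragment is endostatin, was highest in mural-like cells at 525.3 and 534.7 CPM, 3.98-fold and 3.19-fold the level of the next type, alveolar-like fibroblasts (132.2 and 167.7 CPM). Endothelial-like cells were too few to be among the types ranked. Col16a1, a FACIT collagen, stood at 109.3 and 118.2 CPM in peribronchial-like and 98.95 and 99.87 in fibrotic-like fibroblasts.

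Among the named fibroblast subtypes, transmembrane collagens were highest in alveolar-like fibroblasts, with a sum of 764.6 and 829.4 CPM. The fibroblasts without a subtype name were next, at 570.1 and 589.2 CPM. Col13a1, an adhesion-site collagen, stood at 526.4 and 580.9 CPM in alveolar-like and 257.4 and 267.4 in fibrotic-like fibroblasts. It had 88.49 and 78 CPM in adventitial-like and 8.63 and 14.85 in peribronchial-like ones. Col23a1 had 222.4 and 231.4 CPM in alveolar-like and 123.6 and 84.69 in adventitial-like fibroblasts. Col17a1, the collagen of epithelial hemidesmosomes, was low in fibroblasts, at 15.81 and 17.15 CPM in alveolar-like ones. It was lower still in AT2-like (0.102 and 0.095 CPM) and ciliated-like cells (0.255 and 0.178).

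Fibroblasts without a subtype name were left out of the ranking of types that follows. So were endothelial-like cells (6 and 8), immune-like cells (73 and 88) and the unnamed clusters of 10 and 5 and of 26 and 30 cells. Of the 33 members with at least 50 UMIs, 27 had the same highest cell type in both libraries. These were 9 in fibrotic-like, 4 each in adventitial-like, alveolar-like and peribronchial-like fibroblasts, 3 in mural-like, 2 in ciliated-like and 1 in AT1-like cells. Of the 33, 5 stood at least 3-fold above the next type in both libraries: Col18a1 and Col8a1 in mural-like cells, Col4a3 in AT1-like cells, and Col8a2 and Col26a1 in ciliated-like cells. Col8a1, a short-chain network collagen of vessel walls, had 79.22 CPM (19 UMIs) and 29.1 CPM (8 UMIs, interval 12.56 to 57.33) in mural-like cells. The next type, adventitial-like fibroblasts, had 12.62 and 9.56 CPM. The navitoclax multiple thus lay near the 3-fold limit, within counting error of it. Col8a2 had 92.41 and 87.51 CPM in ciliated-like cells, 8.99-fold and 7.78-fold the next level. Col26a1 had 12.22 and 9.61 CPM there.

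The rarest fibrillar chains were thinly counted. Col24a1 gave 9 UMIs in vehicle and 28 in navitoclax fibrotic-like fibroblasts (2.84 and 6.94 CPM), spread over 8 and 27 cells. Col11a1 gave 21 and 6 UMIs there, from 3 cells and 1 cell, with 15 of the 21 in a single cell, so no level is read from them.

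Network collagens were not confined to fibroblasts. Col4a1 and Col4a2, which join in the common type IV network of basement membranes, stood at 473.3 and 531.3 CPM and at 315.3 and 347.4 CPM in pooled fibroblasts. AT2-like cells had 170.3 and 186.2 CPM of Col4a1 and 102.8 and 108.4 of Col4a2. AT1-like cells had 464.6 and 331.2 CPM of Col4a1 and 447 and 252.6 of Col4a2. Mural-like Col4a1 was 454.5 and 458.3 CPM, and ciliated-like Col4a1 32.33 and 32.02.

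Col4a3 and Col4a4, chains of the second type IV network found in alveolar and glomerular membranes, followed another pattern. Col4a3 was highest in AT1-like cells at 485.8 CPM in vehicle and 251.5 in navitoclax, followed by mesothelial-like (50.09 and 44.75), AT2-like (12.59 and 16.81) and pooled fibroblasts (2.79 and 1.91). Col4a4 had 594.8 and 287.1 CPM in AT1-like, 295.2 and 313.3 in mesothelial-like, 35.42 and 43.59 in AT2-like and 6.85 and 6.47 in pooled fibroblasts. A Col4a4 UMI was seen in 57.9% and 42.7% of AT1-like cells after each cell was thinned to 2000 UMIs, against 1.35% and 0.716% of ciliated-like cells. Col4a5, the third chain of that network, had 184.7 and 105.8 CPM in AT1-like cells and 173.9 and 186.1 in fibrotic-like fibroblasts.

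In AT1-like cells the navitoclax level was 0.518 of the vehicle level for Col4a3 (interval 0.446 to 0.599) and 0.483 for Col4a4 (0.421 to 0.553). The AT1 markers were lower as well: their sum was 21050 CPM in vehicle and 12000 in navitoclax AT1-like cells, with Ager, a receptor that marks AT1 cells, at 8932 and 5496, while the AT2 marker sum was 30480 and 47920. With coarser clusters the class held 136 and 45 cells, the ratios were 0.803 for Col4a3 and 0.714 for Col4a4, and that of Ager was 0.906. The part of AT2-like RNA or cells in these values was not tested.

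Among chain genes that neighbour each other on a chromosome, the type IV pairs had correlated levels, though the ratio of 2 chains could differ widely between cell types. By GENCODE M21 on GRCm38, the starts of Col4a1 (minus strand) and Col4a2 (plus strand) on chromosome 8 lie 21 bases apart, those of Col4a3 (plus) and Col4a4 (minus) on chromosome 1 lie 72 apart, and those of Col4a5 (plus) and Col4a6 (minus) on the X chromosome lie 1309 apart. Across 22 points (11 cell types in 2 libraries, which share library depth and free RNA), Pearson's r of log2(CPM + 1) was 0.989 for Col4a1 with Col4a2, 0.926 for Col4a3 with Col4a4 and 0.854 for Col4a5 with Col4a6. Yet the vehicle UMI ratio of Col4a5 to Col4a6 was 2.18 (1.03 to 4.93) in mural-like cells and 34.4 (21.8 to 57.5) in alveolar-like fibroblasts. In AT2-like cells it was 67 (30.5 to 184), on 6 UMIs of Col4a6. Chains of 1 collagen type encoded apart were as alike in type I (0.995 for Col1a1 with Col1a2) and type V (0.954 for Col5a1 with Col5a2). For Col6a1 with Col6a3 r was 0.796. Chains were unlike in type VIII (-0.0885 for Col8a1 with Col8a2) and in the thinly counted type XI (-0.187 for Col11a1 with Col11a2). Other neighbours ranged widely: r was 0.973 for Col3a1 with Col5a2 and 0.964 for Col6a1 with Col6a2, but 0.79 for Col6a1 with Col18a1 and -0.059 for the rarely counted Col6a5 with Col6a6. The 71 bases between the starts of Col4a3 and Col4a4, chr1:82586850-82586920, are printed because Col4a3 was highest in AT1-like cells in both libraries and Col4a4 in the vehicle library.
Col4a3-Col4a4 interval: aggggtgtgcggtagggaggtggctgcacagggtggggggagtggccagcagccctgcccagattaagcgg
The run is on the minus strand, the strand of Col4a4, from RefSeq on GRCm38.p6. It is 69.0% G or C, and none of the 3 motifs occurs in it.

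The chains of type VI collagen parted between lineages. The 3 main chains assemble together into microfibrils. In pooled fibroblasts Col6a1 stood at 689.6 and 829.8 CPM, Col6a2 at 410.6 and 515.1 and Col6a3 at 594.7 and 761. In AT2-like cells Col6a1 stood at 114.5 and 119.4 CPM, Col6a2 at 20.09 and 22.77, and Col6a3 at 1.75 and 2.39. The UMI ratio of Col6a1 to Col6a3 was 1.16 and 1.09 in pooled fibroblasts and 65.25 (51.45 to 84.01) and 50 (41.06 to 61.51) in AT2-like cells. In mesothelial-like cells it was 17.43 (11.23 to 28.5) and 5.94 (4.14 to 8.76), with Col6a2 kept at 397.2 and 399.6 CPM and Col6a3 at 37.57 and 111.9. Ciliated-like cells, with 5.86 and 9.25 CPM of Col6a1, had a ratio of 1 and 1.3.

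Free RNA in droplets can give cells some fibroblast transcripts, so epithelial levels were set against 8 fibroblast marker genes. Their AT2-like level was 0.168% to 0.584% of that in pooled fibroblasts. Gsn alone made the top of that range (0.520% and 0.584%), and the highest of the other markers was Lum (0.387% and 0.326%). Among the 23 members with at least 500 UMIs in fibroblasts, 12 stayed under 1% in AT2-like cells in both libraries, among them Col1a1 (0.205% and 0.291%), Col3a1 (0.290% and 0.348%) and Col6a3 (0.295% and 0.314%). For the members within the marker range, the source of the AT2-like level (free RNA, doublets or the AT2-like cells themselves) was not tested. Col27a1 (0.460% and 0.530%) and navitoclax Col5a1 (0.480%) lay within that range only through Gsn. Col17a1, on 4 UMIs in each library, stood above that range at 0.994% and 0.836%. In 9 members the AT2-like level passed 3% in both libraries, and 2, Col4a6 and Col5a3, lay between. The highest were Col12a1 (46.2% and 36.9%), Col4a1 (36.0% and 35.1%), Col4a2 (32.6% and 31.2%) and Col6a1 (16.6% and 14.4%), followed by Col4a5 (10.2% and 8.91%), Col23a1 (8.02% and 7.72%), Col18a1 (5.48% and 4.23%), Col16a1 (5.25% and 5.24%) and Col6a2 (4.89% and 4.42%). These limits of 1% and 3% were chosen after the values were seen.

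Ciliated-like cells, which should lack fibrillar collagen, gave a second reference. Col6a1 stood at 0.849% and 1.12% of the fibroblast level there and Col4a1 at 6.83% and 6.03%, both under the AT2-like values. The reference is not clean for every gene: the fibroblast marker Gsn stood at 14.0% and 16.7% there and the fibrillar Col27a1 at 2.31% and 4.43%, on 6 and 20 UMIs of Col27a1. Further, Col4a5 was as high in ciliated-like cells (12.3% and 10.6%) as in AT2-like ones. After thinning to 2000 UMIs, a Col6a1 UMI was found in 19.9% and 19.5% of AT2-like cells and in 0.539% and 2.39% of ciliated-like cells. Unthinned, these shares were 73.1% and 78.9% against 4.76% and 8.78%, at median depths of 18066.5 and 19825 UMIs for AT2-like and 9969 and 12377 for ciliated-like cells. A Col1a1 UMI was found in 1.12% and 0.787% of thinned AT2-like cells, no higher than the 1.35% and 2.15% in ciliated-like cells, and in 88.9% and 91.5% of thinned fibroblasts. Thinning left out 29 and 21 AT2-like and 7 and 14 ciliated-like cells.

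**Figure D1:**
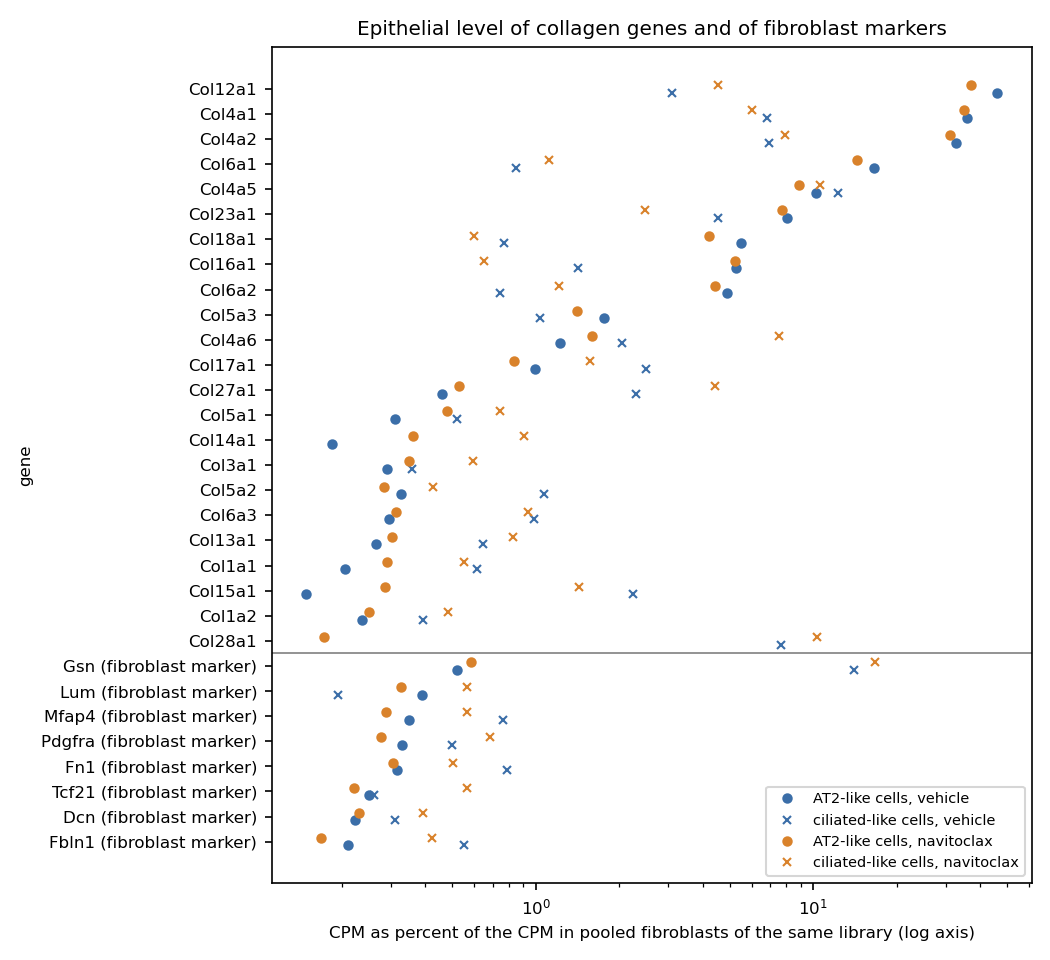
Level of each gene in AT2-like cells (circles) and ciliated-like cells (crosses) as a percent of its level in pooled fibroblasts of the same library, on a log axis, for collagen genes and fibroblast markers. Col12a1, Col4a1, Col4a2 and Col6a1 lie far to the right of the fibroblast markers in AT2-like cells, while Col1a1 and Col3a1 lie among them.

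The title of the series speaks of attenuating fibrosis, so the comparison of navitoclax with vehicle is of collagen levels per cell type. In pooled fibroblasts most fibrillar and type VI chains were at least 1.2-fold higher in the navitoclax library and no network chain was. Of 28 members with at least 100 UMIs, 13 were at least 1.2-fold higher in the navitoclax library and 1 was at least 1.2-fold lower, where 9.22% of all 11448 genes were higher and 7.35% were lower by that fold. The median log2 ratio (navitoclax over vehicle) was 0.23 over the members and -0.00 over all genes. With at least 500 UMIs, 12 of 23 members were higher and 0 lower (5.42% and 4.9% of genes). At 1.5-fold no member was called in either direction, where 3.17% of genes were higher and 0.349% lower.

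By role, 6 of 7 fibrillar members were higher by at least 1.2-fold (median log2 ratio 0.36), as were 3 of 3 microfibrillar members (0.33) and 1 of 3 FACIT members. Of 8 network members 0 were higher and 1 was lower (-0.08), and of 3 transmembrane members 0 were called (-0.05). Col3a1 was 2715 CPM in vehicle and 3591 in navitoclax, 1.32-fold higher (1.31 to 1.34). Col5a1 was 146.9 and 192.2 CPM, 1.31-fold (1.25 to 1.37), and Col15a1 34.21 and 49.79 CPM, 1.46-fold (1.33 to 1.59). Type I chains differed less, Col1a1 with 1871 and 2264 CPM (1.21-fold, 1.19 to 1.22) and Col1a2 with 2602 and 2946 (1.13-fold). Col13a1, highest in alveolar-like fibroblasts among the named subtypes, was 354.9 and 343.2 CPM. The 1 lower member, Col4a3, rests on 74 and 46 UMIs, with an interval of the vehicle over navitoclax fold from 0.997 to 2.16, and its log2 ratio lay between -0.83 and 0.51 over the alternatives tried.

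**Figure D2:**
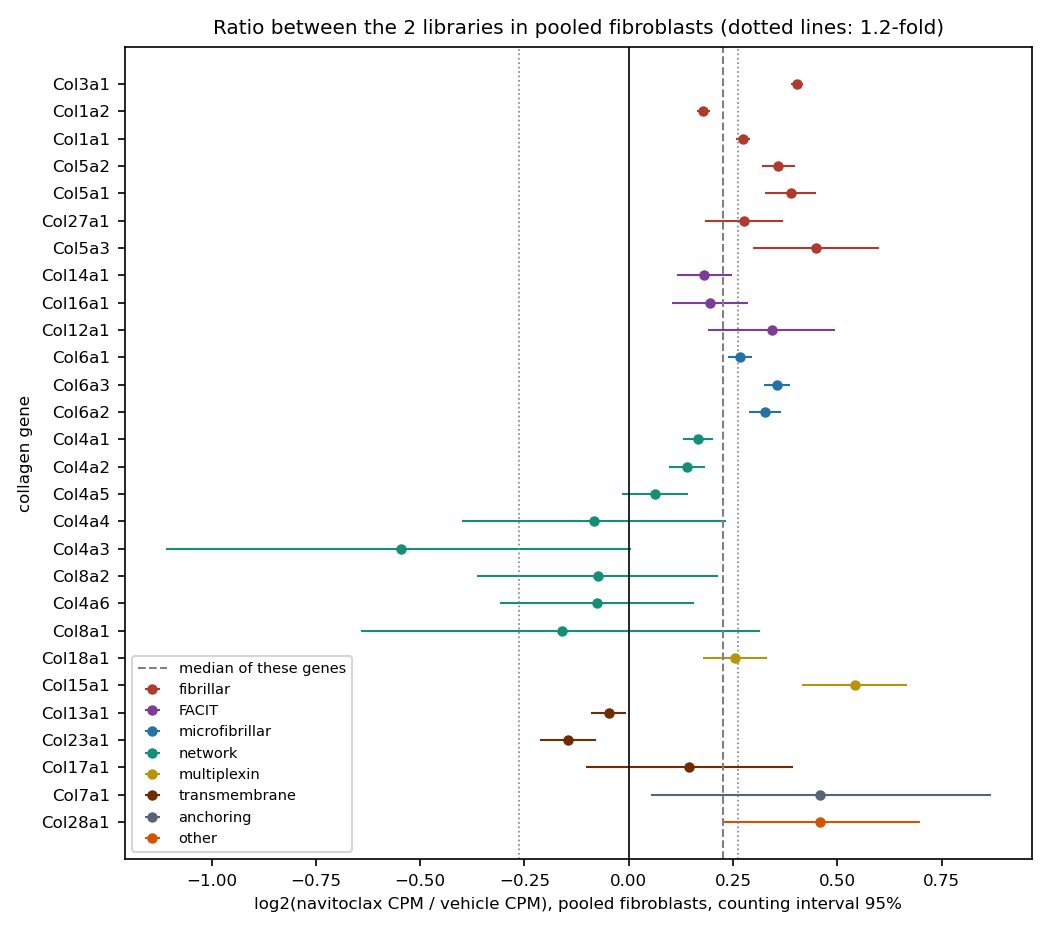
Log2 ratio of navitoclax to vehicle CPM in pooled fibroblasts for each collagen gene with at least 100 UMIs, coloured by structural class, with 95% counting intervals, the 1.2-fold limits dotted and the median of the genes dashed. Fibrillar and microfibrillar genes lie to the right of 0 and most network genes lie around it.

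The size of these ratios moved with the clusters that made up each library's fibroblasts. Weighting each cluster by its vehicle share in both libraries, an alternative added after the data were seen, left 6 of the 28 members higher and 2 lower (10.1% and 9.09% of all genes), with a median log2 ratio of 0.12. The highest under that weighting were Col15a1 (log2 ratio 0.50), Col7a1, the anchoring fibril collagen (0.32), Col5a1 (0.29) and Col6a2 (0.28), and Col3a1 was at 0.27. In alveolar-like fibroblasts, 12 of 21 members were higher and none was lower as pooled (11.8% and 8.56% of genes), with a median of 0.28. Weighted by cluster the median was 0.03, with 4 members higher and 0 lower (15.9% and 17.6% of genes). Within the alveolar-like clusters of 774 and 82 and of 584 and 105 cells the medians were 0.07 each. The fibrillar sum was 4001 and 3952 CPM in the first, 5202 and 5457 in the second and 6097 and 5784 in the third, which held most navitoclax cells (48 and 763).

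The other named subtypes had clusters with cells of both libraries in closer numbers. As pooled, they gave counts nearer to those of all genes than alveolar-like fibroblasts did. Clusters of close numbers were not all near the gene shares. That of 354 and 363 fibroblasts without a subtype name had 10 of 20 members higher and 0 lower (13.7% and 12.3% of genes). The adventitial-like cluster of 212 and 150 cells had 11 of 20 higher and 1 lower (14% and 14.6%). Those of 211 and 209 and of 188 and 162 cells had 3 of 17 and 6 of 20 higher (17.4% and 16.9%). In adventitial-like fibroblasts 7 of 24 members were higher and 5 lower (12.3% and 11.3% of genes), with medians of 0.14 to 0.27 within its 3 clusters. Col15a1 was 1.44-fold higher there, and the transmembrane Col23a1 was 1.46-fold lower (1.29 to 1.65), from 123.6 to 84.69 CPM. Col4a6 went from 27.93 to 16.82 CPM, 1.66-fold lower (1.27 to 2.18). In peribronchial-like fibroblasts 5 of 16 members were higher and none lower (15.3% and 14.3% of genes). In fibrotic-like fibroblasts 4 of 22 were higher and 1 lower (11% and 11.7% of genes), Col3a1 at 1.21-fold and Col18a1 at 1.39-fold (69.96 and 96.9 CPM), while Col15a1 was 1.39-fold lower (1.12 to 1.73). Col3a1 and Col6a3 were at least 1.2-fold higher in each of the 4 named subtypes as pooled. In alveolar-like fibroblasts with clusters weighted, neither kept that call, the log2 ratio being 0.058 for Col3a1 and -0.017 for Col6a3. In those clusters taken singly Col3a1 was 1259 and 1236, 1740 and 1835, and 2205 and 1956 CPM, and Col6a3 608.2 and 611.2, 652.4 and 631.4, and 844.7 and 877.1.

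**Figure D3:**
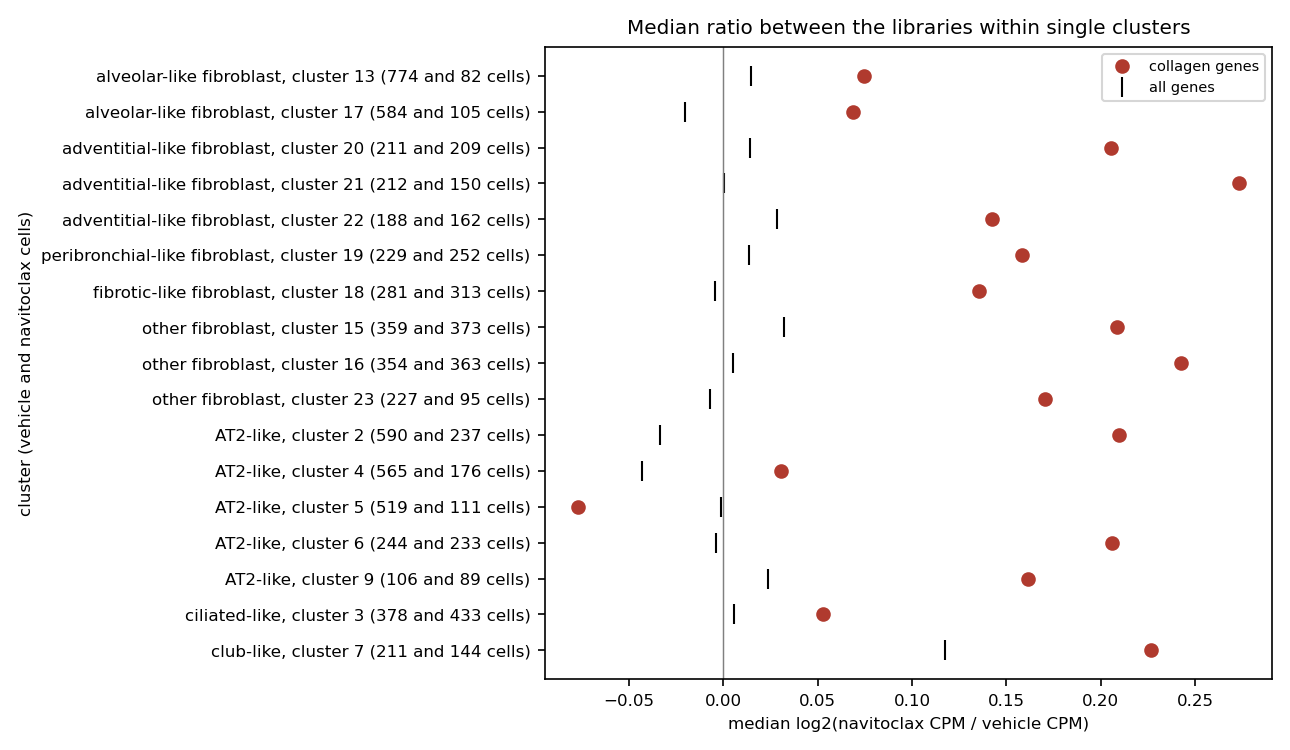
Median log2 ratio of navitoclax to vehicle CPM over the collagen genes tested (circles) and over all genes (ticks) within single clusters, labelled with their vehicle and navitoclax cell numbers. The alveolar-like clusters of 774 and 82 and of 584 and 105 cells lie near 0.07 (the third held too few vehicle cells to be drawn), and the other fibroblast clusters between 0.14 and 0.27.

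In AT2-like cells 6 of 17 members were higher and none lower (7.05% and 5.95% of genes), with a median log2 ratio of 0.15. Within the 5 AT2-like clusters that could be compared, the medians lay between -0.08 and 0.21, and the cluster of 13 and 1140 cells gave none. Of the 6, Col1a1, Col1a2, Col3a1 and Col6a3 lay within the range of fibroblast markers as a percent of the fibroblast level. The fibroblast marker sum in AT2-like cells was 134.8 CPM in vehicle and 129.5 in navitoclax, while Col1a1 was 3.84 and 6.6 CPM. That sum was mostly Gsn, with 4155 and 4422 UMIs, against 486 and 376 for the next marker, Mfap4. Only 1 of the 8 markers reached 20 CPM there, so the sum is a poor measure of fibroblast RNA. The source of these collagen levels was not tested. The other 2 were Col4a3, 1.34-fold (1.19 to 1.5), and Col4a4, 1.23-fold (1.15 to 1.32), which lie well above their fibroblast levels. In ciliated-like cells 3 of 8 members were higher and 1 lower (9.93% and 8.76% of genes). In club-like cells (232 and 174) 5 of 9 were higher and 2 lower, where 39.9% of all genes were higher and 3% lower and the median of all genes was itself 0.20.

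Mesothelial-like values rested on few cells. Col3a1 was 1115 and 1822 CPM and Col1a1 136 and 565.8, but 58.8% of the 177 navitoclax Col1a1 UMIs came from 3 cells (34.2% of 76 in vehicle). The fibroblast marker sum in this class was 4090 and 7422 CPM, and its part in these values was not tested. All 10 mesothelial markers were detected in both libraries.

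The genes that make and process collagen, and 8 genes of its receptors and uptake, were followed as a list of 40. In pooled fibroblasts 34 of the 40 had at least 100 UMIs. Of these, 8 were higher by at least 1.2-fold and 1 lower, against the same 9.22% and 7.35% of all genes, with a median log2 ratio of 0.15. By subtype as pooled, 11 of 31 were higher in alveolar-like, 6 of 30 in adventitial-like, 10 of 27 in peribronchial-like and 2 of 31 in fibrotic-like fibroblasts (11.8%, 12.3%, 15.3% and 11% of all genes). In fibrotic-like fibroblasts 1 of 9 prolyl hydroxylation genes was higher, with a median of 0.02. In pooled fibroblasts prolyl hydroxylation genes, needed for a stable helix, gave 4 of 9 higher, led by P4ha3 (14.79 and 20.77 CPM, 1.41-fold) and P4ha1 (45.83 and 60.61, 1.32-fold). Chaperone and export genes gave 3 of 10, with Hspa5, the general chaperone BiP, at 516.2 and 694.4 CPM (1.35-fold) and Serpinh1, the collagen chaperone HSP47, at 956.3 and 1195 (1.25-fold). None of 5 lysyl hydroxylation genes was called, Plod2 being 76.65 and 89.47 CPM. In propeptide processing Pcolce, an enhancer of procollagen cleavage, was 536 and 645.5 CPM (1.2-fold), whereas Pcolce2 was 2004 and 1751. Of 6 receptor and uptake genes, Itga11 was called lower on 64 and 46 UMIs. Its navitoclax over vehicle ratio was 0.792, with an interval (0.530 to 1.175) that includes 1. Ddr2, a collagen-binding receptor kinase, was 153.2 and 178.7 CPM.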

How the data were processed

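The deposited matrices hold raw UMI counts per gene and cell barcode for 1 vehicle and 1 navitoclax library. The authors made these counts with Cell Ranger 4.0.0, per the file headers, on mm10, per the submitters' processing notes.

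A barcode was kept (7396 and 6445) when it had 500 genes or more and its mitochondrial UMIs did not pass 15%. Doublets called by Scrublet in scanpy 1.11.5 (222 and 205) were removed. Cells were clustered with Leiden (resolution 1), with collagen genes left out of the variable genes and of the markers. Clusters were named from marker lists; the scoring rule for names was set after the data were seen. UMI counts were summed per type and library and scaled to CPM; Poisson and conditional exact intervals (95%) cover counting error. The ratio procedure was tested on simulated data. Types were compared from 100 cells in both libraries, and genes from 100 UMIs, at 1.2-fold, with no test. Genes were named by a rule: up to 5 per structural class by UMIs, those at least 3-fold above the next type, up to 6 per direction by ratio, chain pairs, and machinery genes by role. The collagen genes and all lists were chosen with earlier results of these data known. Alternatives covered filters, resolution, typing, thinning, count minimum, fold and weighting.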

Additional observations from a re-analysis of the deposited data

Results flagged for a closer look

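The log2 ratio of navitoclax to vehicle for Col15a1 was 0.52 in adventitial-like and -0.48 in fibrotic-like fibroblasts, a gap of 1.00 between subtypes that moved in opposite directions. For Col1a2 it was 0.27 in AT2-like and -0.74 in club-like cells, a gap of 1.01, on 241 and 313 UMIs in AT2-like and 103 and 49 in club-like cells. Both AT2-like levels of Col1a2 lay within the range of fibroblast markers. In club-like cells Col1a2 stood at 0.510% and 0.270% of the fibroblast level. Fibroblast markers there included Dcn (0.955% and 0.203%), Fbln1 (1.15% and 0.256%) and Pdgfra (0.639% and 0.347%). Mfap4 (0.637% and 0.647%) and Gsn (1.03% and 1.74%) were not lower in navitoclax. The part of fibroblast RNA in the club-like Col1a2 levels was not tested. With 1 library per group, neither the Col15a1 nor the Col1a2 difference was tested.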

How the results depend on the processing

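Of 398 values recomputed under alternatives, 338 stayed close to the value reported: 226 single-gene ratios and 112 medians, counts or multiples. Log2 ratios or medians took the opposite sign in 10 cases: 3 for the ciliated-like median, 1 each for Col12a1 and Col13a1 (all below), and 5 for Col4a3, Col4a4, Col4a6 and Col8a2, network chains whose ratios lay near 1 or rested on few UMIs. The direction of the pooled fibroblast median held in every alternative tried. It was 0.12 with clusters weighted by vehicle shares, an alternative chosen after seeing the data, which also gave 6 members higher and 2 lower and an alveolar-like median of 0.034. The count of lower members was 2 at resolution 0.5, with a 30% mitochondrial limit and with subtypes weighted, 4 at a minimum of 20 UMIs, and 0 with thinned cells, at 500 UMIs and at 1.5-fold, where the higher count was 0 too.

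The fibrillar multiple of fibrotic-like over alveolar-like fibroblasts (vehicle, navitoclax) was 2.02 and 1.94 at resolution 0.5, 3.66 and 3.35 at resolution 2, 1.90 and 1.88 with each cell called alone, 1.84 and 2.35 with each library clustered alone, 1.75 and 1.62 at 30% mitochondrial UMIs, 1.82 and 1.64 with doublets kept, and 2.41 and 2.38 with thinned cells. Keeping collagens among the variable genes gave no such value and an alveolar-like median of 0.37. The ciliated-like median turned to -0.094 with each cell called alone, -0.043 with doublets kept and -0.079 at 500 UMIs. With each cell called alone the club-like median was 0.79. The adventitial-like median was 0.27 at 30% mitochondrial UMIs. With each library clustered alone the peribronchial-like median was 0.66 and the fibrotic-like median 0.41, and in pooled fibroblasts Col12a1 turned to -0.11 and Col13a1 to 0.058. The cause of these moves was not tested.

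No paired analysis was possible because each group has 1 library. With 1 library per group and no uninjured lung, a difference between treatments cannot be told apart from one between mice, sorts or libraries. In bulk sums of a type, more RNA per cell and more cells of a high-collagen state cannot be told apart either.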

Other observations

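Col28a1, a collagen with von Willebrand factor A domains, had its highest fibroblast level in the fibrotic-like class, at 36.24 CPM in vehicle and 44.36 in navitoclax, against 14.42 and 17.01 in adventitial-like fibroblasts. Col7a1, the anchoring fibril collagen, stood at 2.80 CPM on 110 UMIs and 2.79 CPM on 118 in AT2-like cells, against 3.50 and 4.81 CPM in pooled fibroblasts.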
